A study of Glycine max with 54 samples.

Results

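The 5-6 mm developing seeds of 2 soybean (Glycine max) varieties, Archer and Minsoy, harvested in 2008, were compared on Affymetrix soybean arrays. The 6 arrays, 3 of Archer and 3 of Minsoy, were chosen by sample title from the 54 arrays of the series. The other arrays hold seeds of the same varieties at 2 and 3.5 mm, their seeds of 2007, and lines derived from their cross. Plants of both varieties stood in the field in Minnesota. Seeds were sampled whole as far as the labels say, so seed coat and embryo were measured together. In 2008 each variety had 3 replicates sown 1 to 2 weeks apart in randomized blocks, and a replicate pooled the seeds of its rows. A replicate is therefore a field block of 1 variety, not a plant. Of 37744 probe sets (the groups of probes that report 1 transcript), 24207 were tested: controls were left out, and 3 or more of the 6 arrays had to reach a log2 value of 5. All levels below are log2 values, and every difference is Archer minus Minsoy on the log2 scale.

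At this length a soybean seed is passing from growth of the seed coat and the young embryo to filling. Cells of the cotyledons expand and begin to accumulate glycinin and conglycinin globulins, protease inhibitors and oil, and late embryogenesis proteins follow as the seed matures. The phenylpropanoid pathway supplies the seed with lignin precursors, isoflavones and flavonoids. It runs from cinnamate through chalcone synthase, reductase and isomerase, and its branches end in isoflavones, in glycosylated flavonoids, or, through leucoanthocyanidin and anthocyanidin reductases, in the proanthocyanidins of the seed coat.

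Among the 6 arrays, Minsoy replicate 1 stood apart. Probe sets were ranked by the moderated t of limma for the change from 2 to 5-6 mm in the parents of 2007. A stage score was taken as the mean level of the 200 with the highest t minus that of the 200 with the lowest. It was 3.96, 3.84 and 4.07 in the Archer arrays, against 1.25, 3.92 and 4.43 in the Minsoy arrays. On a scale where Archer of 2008 at 2 mm is 0 and at 5-6 mm is 100, Minsoy replicate 1 lay at 27.6%. Over the probe sets tested, its mean correlation was 0.978 with the 2 mm arrays (without Minsoy replicate 1 of that length) and 0.908 with the other 5-6 mm arrays. For the remaining 5-6 mm arrays these values ran from 0.846 to 0.907 and from 0.94 to 0.966. The first Minsoy replicate at 2 mm, with a stage score of 4.13, lay among the 5-6 mm arrays. Both doubted arrays were kept under their labels, and the results are given with and without them.

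**Figure D1:**
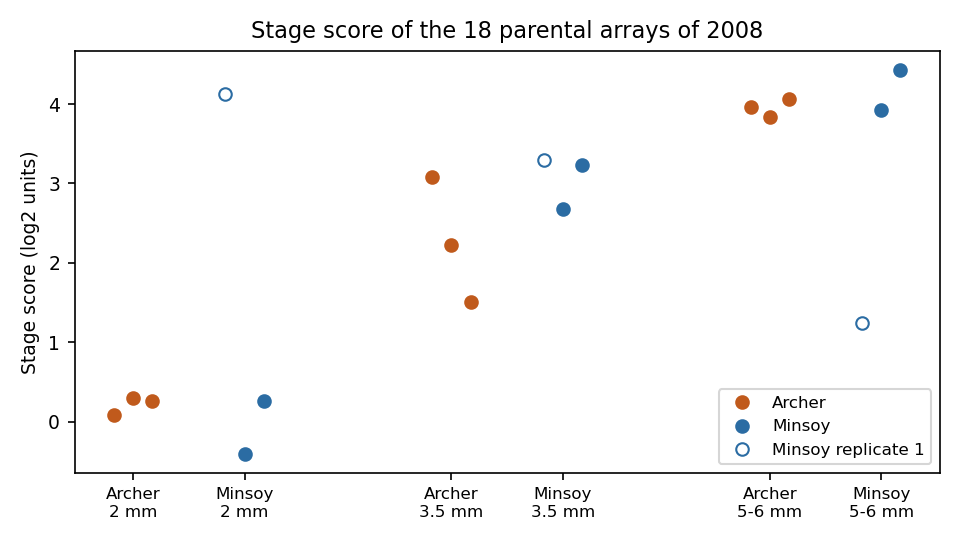
Stage score (log2 units, vertical axis) of the 18 arrays of Archer (orange) and Minsoy (blue) of 2008 by seed length, with 1 point per array and open circles for Minsoy replicate 1. At 5-6 mm the open circle lies at 1.25 while the other 5 arrays lie between 3.84 and 4.43, and at 2 mm it lies at 4.13.

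Markers of the tissues in a whole seed were read in the same arrays. The 9 embryo and storage cotyledon markers tested (of 11 listed) had a mean log2 level of 14.09, 13.80 and 12.65 in Archer, against 3.72, 13.63 and 14.82 in Minsoy. Here 8 of the 9 were under 5 in at least 1 array. The 3 seed coat markers averaged 12.04, 12.21 and 12.51 in Archer and 7.87, 12.42 and 12.30 in Minsoy. The 4 markers of young seeds averaged 7.74, 7.91 and 7.65 in Archer and 10.51, 7.96 and 5.55 in Minsoy, where replicate 1 was the highest. The 8 leaf and pod markers were level, at 11.47 to 11.58 in Archer and 11.53 to 11.88 in Minsoy. Apart from replicate 1 of Minsoy, the arrays of both varieties carried the defining transcripts of a filling seed and its coat. In whole tissue, fewer cells of a type and less RNA per cell cannot be told apart.

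A small share of the probe sets was called different between Archer and Minsoy seeds. The count depended on the fit and does not give the share of transcripts that differ. By limma, fitted to all 18 parental arrays of 2008 with Benjamini-Hochberg adjustment, 314 probe sets (1.3% of those tested) passed an adjusted p of 0.05. Of these, 154 (0.636%) were higher in Archer and 160 (0.661%) were lower. At an unadjusted p under 0.05 there were 3455, and with array weights in the fit 4953 passed the adjusted threshold. In all 314 the groups did not overlap, which was the case for 18% of all probe sets tested. The median size of the difference was 1.18 among the probe sets called and 0.175 among all tested, and 188 of the 314 differed 2-fold or more. In 43 of the 314 every Minsoy array was under a log2 of 5, the level of the filter, and in 20 every Archer array was. For such probe sets the size of the difference is not exact.

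Without Minsoy replicate 1, 277 probe sets were called (1.14%), 160 higher (0.661%) and 117 lower (0.483%), and 213 of the 314 were among them. All 314 kept their sign, which was fixed in advance because their groups did not overlap. The median ratio of the size of the difference to that with all arrays was 0.998. Without both doubted arrays, of which Minsoy replicate 1 at 2 mm enters through the shared estimate of the spread, 815 were called (3.37%; 1.92% higher and 1.45% lower), with 286 of the 314 among them. With the planting replicate as a block, 258 were called (1.07%; 0.533% each way) and 245 were shared. Single arrays of Archer moved the count further: 160 were called without Archer replicate 3 and 197 without Archer replicate 1. In the 19 alternatives that drew on more than the arrays of this length, 115 of the 314 were called wherever they were tested. The alternative with 1-gene probe sets tested 83 of the 314, and that with the filter at log2 7 tested 224. Fits to the arrays of this length alone called fewer probe sets. They called 66 with the 6 arrays, 6 with these and the planting block, and 83 without Minsoy replicate 1.

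**Figure D2:**
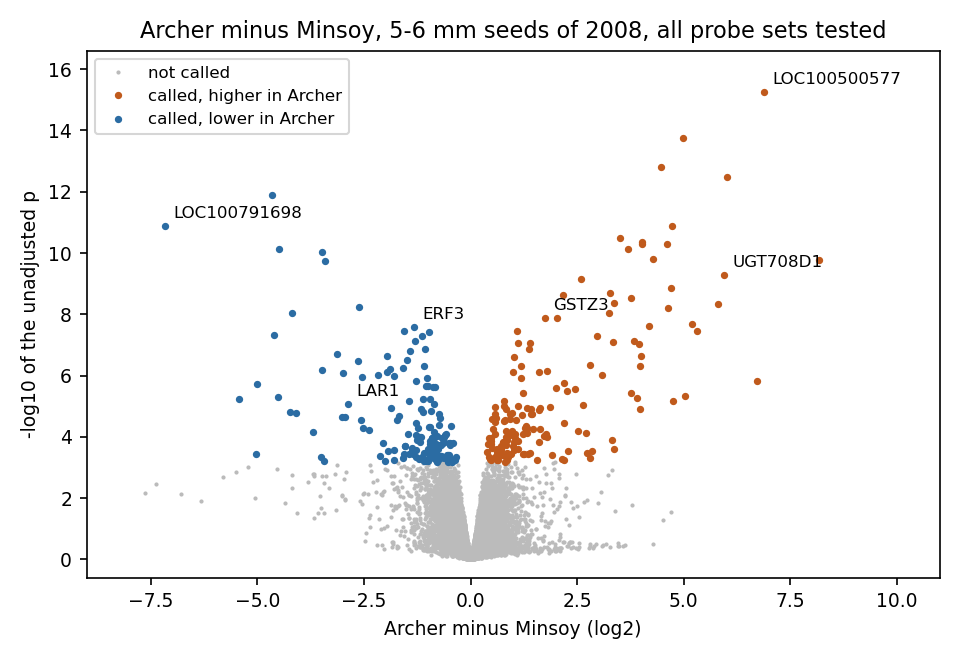
Difference between Archer and Minsoy seeds (horizontal axis, log2) against the negative log10 of the unadjusted p (vertical axis) for the 24207 probe sets tested. The 154 called higher in Archer are orange, the 160 called lower are blue, and the others are grey.

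Most of the probe sets called have no gene in the annotation used: 83 had 1 gene, 4 had several and 227 had none. Counting 1 probe set per gene, 14 of the 737 genes with a descriptive symbol were called (1.9%), 4 higher in Archer and 10 lower. Their values in each array are given below by role and are drawn in the plot of called genes.

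**Figure D3:**
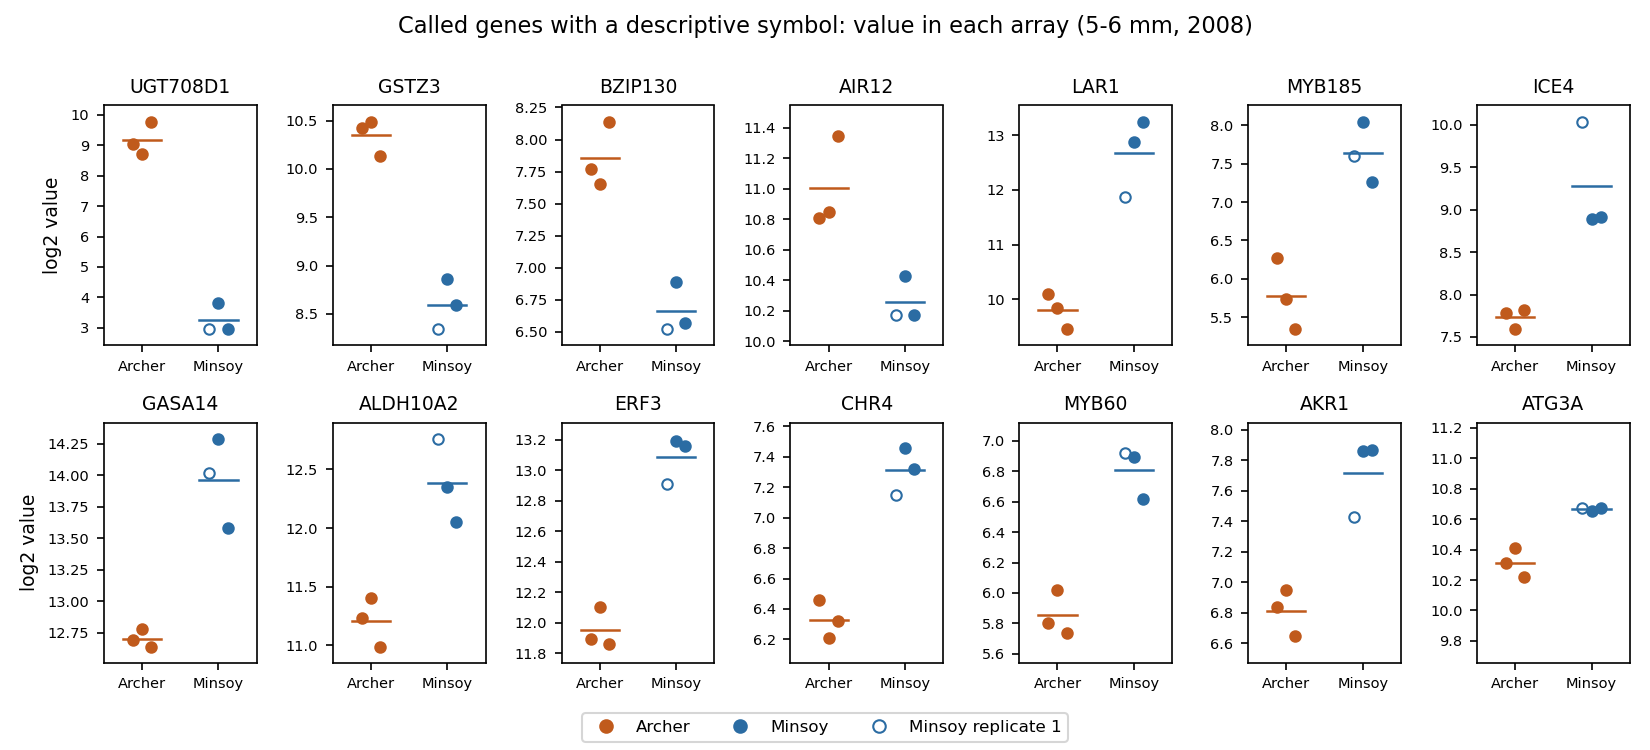
Log2 value (vertical axis, scaled for each gene) in each of the 3 Archer arrays (orange, left) and 3 Minsoy arrays (blue, right) for the 14 called genes with a descriptive symbol. Horizontal lines are group means and open circles are Minsoy replicate 1; in none of the 14 genes do the varieties overlap.

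In the flavonoid and phenylpropanoid pathway the varieties differed at single enzymes. Of 34 genes tested, 1 rose and 2 fell, where 1.9% of all genes with a descriptive symbol were called. The median difference of 0.28 (-0.00 without Minsoy replicate 1) stood beside 0.01 for all probe sets tested. UGT708D1, a C-glucosyltransferase that joins glucose to flavonoid precursors, was at 9.05, 8.71 and 9.78 in Archer, against 2.95, 3.81 and 2.96 in Minsoy. All Minsoy arrays were under the filter level and no Archer array was near it. The difference was 5.94 (SE 0.40, adjusted p = 7.16e-07 by limma), and 5.80 without Minsoy replicate 1 (adjusted p = 9.78e-06).

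LAR1, leucoanthocyanidin reductase of the proanthocyanidin branch, went the other way. It was at 10.10, 9.84 and 9.45 in Archer and 11.87, 12.88 and 13.25 in Minsoy. The difference of -2.87 (SE 0.42, adjusted p = 0.00209) made it 7.32-fold lower in Archer. It was -3.27 without Minsoy replicate 1, the lowest of the Minsoy arrays. CHR4, a chalcone reductase, the enzyme that diverts the pathway to 5-deoxy compounds, was at 6.46, 6.21 and 6.32 in Archer against 7.15, 7.46 and 7.32 in Minsoy, a difference of -0.98 (SE 0.17, adjusted p = 0.00822).

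For 3 further enzymes of the pathway a second probe set was called while the brighter one was not. CHI1B1, a chalcone isomerase, had a probe set at 7.48, 6.16 and 7.48 in Archer and at 2.01, 2.02 and 2.02 in Minsoy. It differed by 5.02 (SE 0.70, adjusted p = 0.00131). The brighter probe set of this gene, at 9.34, 7.51 and 9.46 in Archer and 4.04, 6.75 and 6.58 in Minsoy, differed by 2.98 and missed the threshold (adjusted p = 0.218). SOMT-9, an O-methyltransferase, differed by -1.68 at the called probe set (adjusted p = 0.00409) and by -0.23 at the brighter one. C4H, the cinnamate hydroxylase near the head of the pathway, differed by -0.77 (adjusted p = 0.0218, and 0.0738 without Minsoy replicate 1). At its brighter probe set it differed by -0.57 (adjusted p = 0.072).

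Of the 34 genes, 8 had groups that did not overlap (4 higher and 4 lower in Archer), 8 were at an unadjusted p under 0.05, and 8 were called with array weights. Among all 24207 probe sets tested, 18% did not overlap, 3455 were at an unadjusted p under 0.05 and 4953 were called with array weights. Some members, given here as examples, were not called. F3H, flavanone hydroxylase, was at 15.45, 15.37 and 15.39 in Archer against 15.65, 15.57 and 15.43 in Minsoy. ANR1, the anthocyanidin reductase beside LAR1 in the proanthocyanidin branch, was at 14.16, 14.15 and 14.05 against 14.57, 14.19 and 13.30 in Minsoy. IFS2, an isoflavone synthase, was at 8.55, 8.20 and 7.88 in Archer and 3.05, 8.60 and 9.04 in Minsoy. There the low value belonged to Minsoy replicate 1, and the difference of 1.31 became -0.61 without it (adjusted p = 0.779 and 0.862 by limma).

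Of the genes of redox and small-molecule metabolism, GSTZ3, a glutathione transferase of the zeta class, was at 10.42, 10.49 and 10.13 in Archer and 8.34, 8.86 and 8.59 in Minsoy. It rose by 1.75 (SE 0.15, adjusted p = 1.06e-05). It was the single call among 16 glutathione transferases, whose median difference was -0.16, and the second probe set of the gene was not called. ALDH10A2, an aldehyde dehydrogenase of the family that oxidises aminoaldehydes, was at 11.23, 11.40 and 10.99 in Archer and 12.76, 12.35 and 12.05 in Minsoy. It fell by 1.18 (adjusted p = 0.0143, and 0.0564 without Minsoy replicate 1). AKR1, an aldo-keto reductase, was at 6.84, 6.95 and 6.65 against 7.43, 7.86 and 7.87 in Minsoy, and fell by 0.91 (adjusted p = 0.0151).

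Among the called transcription factors ERF3, an ethylene response factor, had the lowest adjusted p. Its brightest probe set was at 11.89, 12.10 and 11.86 in Archer and 12.91, 13.19 and 13.16 in Minsoy. All 3 of its probe sets were called, with differences of -1.13, -1.33 and -1.57 (adjusted p = 3.13e-05, 1.91e-05 and 2.36e-05). ICE4, of the bHLH type that in Arabidopsis acts in the response to cold, was at 7.78, 7.59 and 7.82 in Archer and 10.04, 8.89 and 8.92 in Minsoy. Minsoy replicate 1 was the highest. The difference of -1.55 (SE 0.33, adjusted p = 0.0344) was -1.17 without it, with an adjusted p of 0.0915, and the planting block gave 0.068. Without both doubted Minsoy arrays the adjusted p was 0.0023. Of the 8 DREB, ERF and ICE factors tested, none rose and these 2 fell, beside a call for 1.9% of all genes with a descriptive symbol.

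The other families of factors held few calls. MYB185 was at 6.27, 5.73 and 5.34 in Archer and 7.60, 8.05 and 7.26 in Minsoy, and fell by 1.86 (SE 0.28, adjusted p = 0.0026). MYB60 was at 5.80, 6.02 and 5.74 in Archer and 6.92, 6.89 and 6.62 in Minsoy, and fell by 0.96 (adjusted p = 0.0175, and 0.0592 without Minsoy replicate 1). They were the calls among 38 MYB factors, whose median difference was -0.06. BZIP130 was at 7.77, 7.65 and 8.14 in Archer and 6.52, 6.89 and 6.57 in Minsoy, and rose by 1.19 (SE 0.15, adjusted p = 0.000407), the single call among 42 bZIP factors. No member of the 15 WRKY or the 9 NAC factors was called by limma. At an unadjusted p under 0.05 were 3 and 2 of them, beside 3455 of all 24207 probe sets tested. With array weights 3 and 1 were called, beside 4953 of all probe sets.

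The remaining called genes with a symbol act in growth and turnover. GASA14, of the family of gibberellin-regulated cysteine-rich peptides, was at 12.69, 12.78 and 12.64 in Archer and 14.02, 14.29 and 13.58 in Minsoy. It fell by 1.26 (SE 0.24, adjusted p = 0.0171, and 0.0551 without Minsoy replicate 1), and 2 of its 3 probe sets were called. The probe set belongs to a type that can match more than 1 gene, and no other of the 14 GASA genes tested was called. AIR12, named for its auxin-induced transcript in roots, was at 10.81, 10.85 and 11.35 in Archer and 10.17, 10.43 and 10.17 in Minsoy, and rose by 0.75 (adjusted p = 0.0366). ATG3A, an enzyme of autophagy, was at 10.31, 10.41 and 10.22 against 10.67, 10.65 and 10.67 in Minsoy, and fell by 0.35 (adjusted p = 0.0409). AIR12 and ATG3A missed the threshold without Minsoy replicate 1 (adjusted p = 0.0961 and 0.0892) and with the planting block (0.0666 and 0.0658).

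Several genes of known function had groups that did not overlap but missed the adjusted threshold. Groups did not overlap for 125 of the 737 genes with a descriptive symbol and for 18% of all probe sets tested. Separation alone therefore does not mark out the genes named here. Higher in Archer were ERF6 (0.67, adjusted p = 0.0731), the IQ-domain protein gene IQD40 (0.86, 0.0853), the calmodulin gene SCAM-4 (0.71, 0.122), the coatomer subunit gene COPZ2 (0.38, 0.137) and the auxin carrier gene LAX11 (0.50, 0.16). So were the 14-3-3 protein gene GF14B (0.25, 0.16) and the tubulin gene TUBB2 (0.38, 0.169). The aldehyde dehydrogenase gene ALDH2C8 (-1.09, 0.0856), the cell wall proline-rich protein gene PRP2 (-1.28, 0.158) and the purple acid phosphatase gene PAP25 (-2.18, 0.108) were lower in Archer. PAP25 lay near the filter level, at 3.43, 5.31 and 4.90 in Archer and 7.43, 6.93 and 5.84 in Minsoy. NAC19 (-1.34, adjusted p = 0.342), the sugar transporter gene SWEET17 (-1.19, 0.639) and GASA32 (-1.04, 0.329) had groups that overlapped.

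The storage proteins were where Minsoy replicate 1 weighed most. None of the 9 storage globulins and albumins was called by limma, and 1 had an unadjusted p under 0.05. With array weights 1 was called. GY1, a glycinin subunit, was at 16.09, 15.81 and 15.27 in Archer, against 2.04, 15.96 and 16.31 in Minsoy. Of the Minsoy arrays only replicate 1 was low, close to the lowest value of the scale, while the other 2 lay at Archer levels or above. The median difference over the 9 genes was 2.27 with all arrays and -0.73 without Minsoy replicate 1, and 8 of the 9 were then lower in Archer.

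The same turn was seen in the genes that fill and dry the seed. The 8 protease inhibitors and other seed defence proteins had a median of 1.60 with all arrays and -0.38 without Minsoy replicate 1. The 20 late embryogenesis and seed maturation genes had medians of 0.93 and -0.39, and neither list held a call by limma. In the 2 lists 0 and 3 genes were at an unadjusted p under 0.05, beside 3455 of all 24207 probe sets. With array weights 0 and 3 were called, beside 4953 of all probe sets. LOX2, a seed lipoxygenase, was at 14.77, 13.93 and 13.25 in Archer and 2.03, 14.20 and 15.28 in Minsoy. Over the alternatives that left out the array, the median of the storage list ran from -2.45 to -0.27, and over the others from 0.14 to 4.42. PM29, a seed maturation protein gene, had groups that did not overlap, at 10.64, 10.88 and 9.91 in Archer and 5.00, 7.79 and 8.98 in Minsoy. Its difference was 3.22 (adjusted p = 0.0891) and 2.09 without Minsoy replicate 1 (adjusted p = 0.165, and 0.0482 without both doubted arrays).

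One conglycinin gene varied within Archer. CG-BETA-1 was at 12.98, 10.42 and 2.78 in Archer and 2.21, 4.49 and 5.38 in Minsoy, so the third Archer array lay among the Minsoy arrays (difference 4.70, adjusted p = 0.287). The gene of the glycinin subunit A1 was high in all 6 arrays, at 15.69, 15.81 and 14.95 in Archer and 14.68, 16.06 and 16.37 in Minsoy (adjusted p = 0.918). The 18 genes of fatty acid and oil synthesis held no call by limma and had a median of 0.13 (-0.10 without Minsoy replicate 1). None was at an unadjusted p under 0.05, and 4 were called with array weights, beside 4953 of all 24207 probe sets.

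Heat shock genes were lower in Archer in most cases, although none passed the adjusted threshold. Of 17 genes tested, 15 had a negative difference, 10 were at an unadjusted p under 0.05 and 0 were called by limma, against 4 with array weights. For all 24207 probe sets, 3455 were at an unadjusted p under 0.05 and 4953 were called with array weights. The median of the 17 genes was -0.78, and 0.01 for all probe sets tested. HSP17.5-E, a small heat shock protein gene, was at 7.28, 8.30 and 6.46 in Archer and 14.51, 9.45 and 11.13 in Minsoy. HSP22.5, another, was at 4.90, 5.28 and 2.88 in Archer and 12.88, 7.99 and 7.31 in Minsoy. In both genes every Minsoy array was above every Archer array, and Minsoy replicate 1 was the highest of all.

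HSF-30, a heat shock factor gene, was at 2.52, 3.42 and 2.15 in Archer and 7.38, 5.51 and 6.19 in Minsoy (difference -3.66, adjusted p = 0.0901). In the smaller seeds of 2008 it differed by 0.78 at 2 mm and 0.26 at 3.5 mm. The change of the difference to 5-6 mm was not called from either length (adjusted p = 0.364 and 0.911 by limma). HSP90A1, a chaperone gene, was at 9.68, 13.02 and 9.56 in Archer and 15.29, 13.33 and 13.98 in Minsoy, with the second Archer array close to the Minsoy arrays. Groups did not overlap for 8 of the 17 genes, 6 lower and 2 higher, and the share for all probe sets was 18%. Without Minsoy replicate 1 the median was -0.59, 14 of 17 were lower and 3 were at an unadjusted p under 0.05, beside 4139 of all 24207 probe sets. The median stayed between -1.04 and -0.55 in all 22 alternatives, scalings included, but several of these leave the differences themselves unchanged. What the plants met in the field on the day of harvest was not recorded in the labels, and its part was not tested. In the seeds of 2007 the median of the list was 0.16, and HSF-30 was between 2.06 and 2.87 in all 6 arrays.

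**Figure D4:**
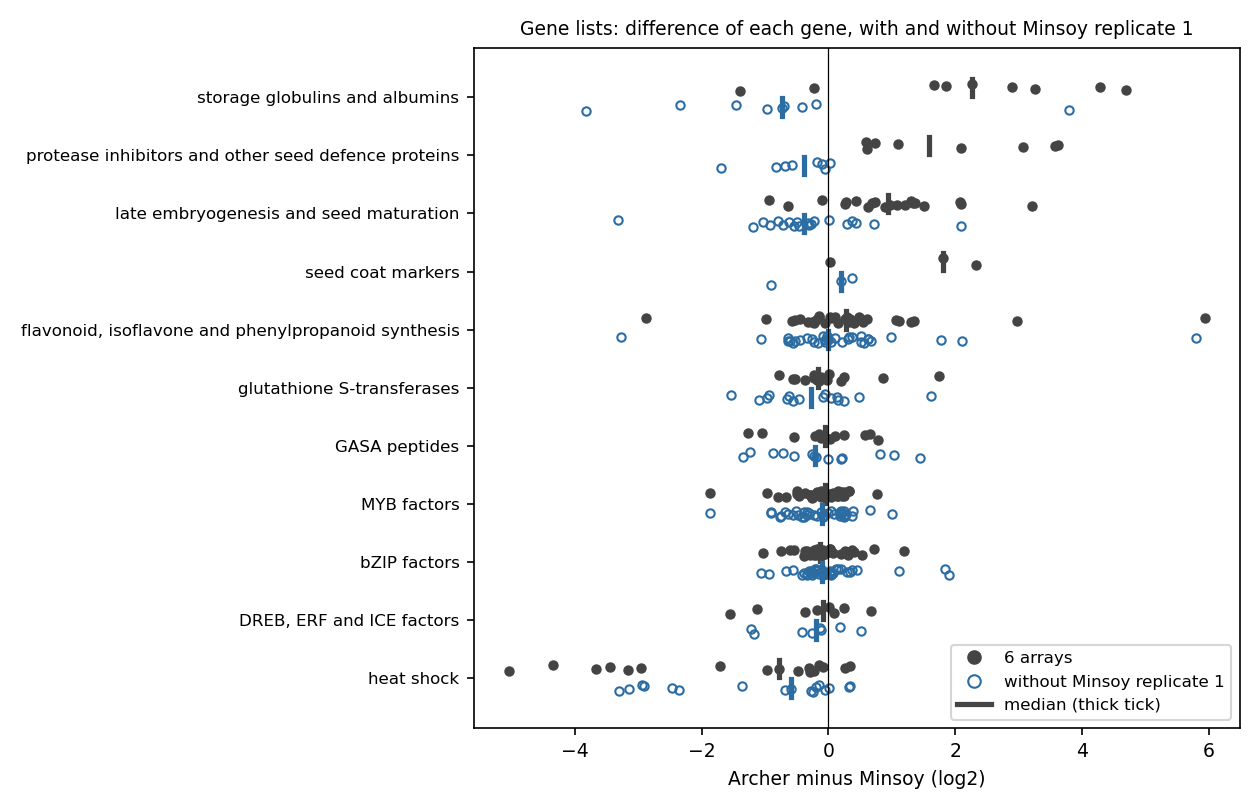
Difference between Archer and Minsoy (log2) for each gene of 11 lists, with all 6 arrays (filled) and without Minsoy replicate 1 (open); thick ticks are medians. The medians of the storage, protease inhibitor and late embryogenesis lists change sign without that array (2.27 and -0.73 for storage), and that of the heat shock list does not (-0.78 and -0.59).

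Over the 28 lists described here, 10 of 372 genes tested were called (2.69%), 3 higher and 7 lower, and 22 lists held none. The share over all genes with a descriptive symbol was 1.9%, and over all genes 1.14%. Photosynthesis genes (median 0.04), aquaporins (0.12), ribosomal protein genes (0.09), hormone genes (0.11) and genes of sucrose and starch (-0.09) lay near the median of all probe sets, 0.01. Without Minsoy replicate 1 the medians were -0.27 for photosynthesis (8 of 10 genes lower), 0.01 for aquaporins, 0.19 for ribosomal protein genes and 0.09 for hormone genes. That of sucrose and starch was -0.24 (9 of 12 lower), and that of all probe sets 0.01. With 3 arrays a group, a median close to that of all probe sets does not show that the varieties are alike.

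Among the probe sets called, the 4 largest differences each way belonged to probe sets with no gene name or with a locus number alone. GmaAffx.77896.1.S1_at was at 10.41, 10.15 and 10.65 in Archer and 2.46, 2.12 and 2.15 in Minsoy, a difference of 8.16 (SE 0.50). Gma.1871.1.S1_at differed by 6.70 and GmaAffx.93026.1.S1_at by 6.00 in the same direction. LOC100791698 was at 3.12, 2.97 and 3.75 in Archer and 10.17, 10.58 and 10.60 in Minsoy, a difference of -7.17 (SE 0.36, adjusted p = 4.63e-08). LOC100819853 differed by -5.0 (adjusted p = 0.000565) and LOC100791734 by -5.03 (adjusted p = 0.0348, and 0.101 without Minsoy replicate 1). In each of these 6 the varieties did not overlap.

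Probe sets of 1 gene could disagree. LOC100500577 had a probe set at 8.61, 8.64 and 9.24 in Archer and at 1.96, the lowest value of the scale, in all 3 Minsoy arrays. Another probe set of LOC100500577 was at 2.00, 4.93 and 1.96 in Archer and 9.49, 8.62 and 7.09 in Minsoy, so its probe sets were called in both directions (6.87 and -5.43). LOC547605 likewise had called probe sets from -4.66 to 3.70. Among the 27 called genes with several probe sets tested, 4 had all of them called 1 way, 22 had only some called and 2 were called both ways, counting LOC547605 among those with only some. An array difference of this kind can follow a sequence difference under a probe, an alternative transcript or the amount of transcript, which these values cannot tell apart.

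Many of the differences at 5-6 mm were also found in the smaller seeds of the same year, and most kept their sign there. The 3 lengths share 1 estimate of the spread for each probe set, so their calls are not independent. Of the 314, 142 were also called at 2 mm, where 0.847% of all probe sets were, 157 at 3.5 mm (0.868%), and 130 at all 3 lengths. The sign was the same for 272 of the 314 at 2 mm (86.6%, against 51.1% of all probe sets tested) and for 297 at 3.5 mm (94.6%, against 57.9%). UGT708D1 differed by 5.81 at 2 mm, 5.10 at 3.5 mm and 5.94 at 5-6 mm. LAR1 differed by -2.93, -3.0 and -2.87, and ERF3, at the probe set Gma.4155.1.S1_at, by -1.36, -1.27 and -1.33. The widest of these gaps, that of UGT708D1 between 3.5 and 5-6 mm, was 0.84 with an SE of 0.56.

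Of the 815 called at 5-6 mm without both doubted arrays, 637 were called at neither smaller length in the fit to all 18 arrays. That fit called 205 probe sets at 2 mm and 210 at 3.5 mm, against 224 and 348 without both doubted arrays. The 637 therefore sets unlike fits side by side. Of the 314, 145 were called at neither smaller length in the fit to all 18 arrays. CHI1B1 was an example: at its called probe set the Archer arrays were at 2.02 in all 3 replicates of 2 mm seeds, at 6.09, 2.99 and 2.02 at 3.5 mm, and at 7.48, 6.16 and 7.48 at 5-6 mm. The Minsoy arrays of 2008 lay between 1.96 and 2.02 at every length. In the 5-6 mm seeds of 2007 this was not so. There the same probe set was at 5.77, 7.82 and 4.45 in Archer and 2.34, 8.71 and 5.9 in Minsoy, a difference of 0.36. AIR12 differed in 2008 by 0.07 at 2 mm, -0.08 at 3.5 mm and 0.75 at 5-6 mm. Tested directly, however, the change of the difference between lengths was called for no probe set: 0 from 2 to 5-6 mm (2383 at an unadjusted p under 0.05) and 0 from 3.5 to 5-6 mm (1249). Without both doubted Minsoy arrays the counts were 2 and 0, and with array weights 152 and 2. A call at 5-6 mm alone is thus not shown to be particular to that length.

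**Figure D5:**
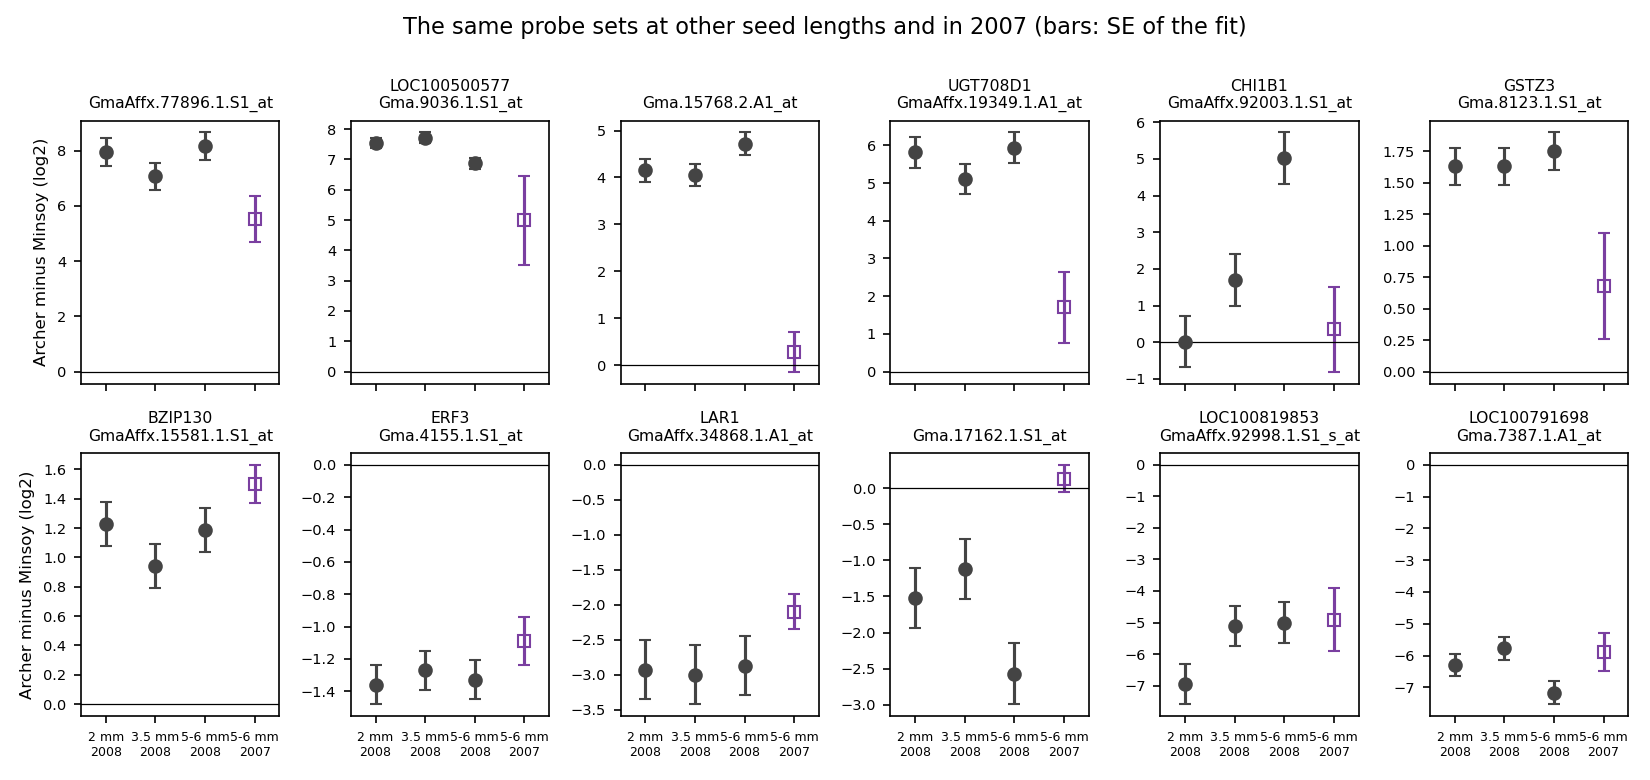
Difference between Archer and Minsoy (log2, with the SE of the fit as bars) for 12 probe sets in seeds of 2, 3.5 and 5-6 mm of 2008 (filled) and of 5-6 mm of 2007 (open). UGT708D1, LAR1 and ERF3 have like differences at the 3 lengths of 2008, CHI1B1 differs by 0.02 at 2 mm and 5.02 at 5-6 mm, and Gma.15768.2.A1_at differs by 4.72 in 2008 and 0.28 in 2007.

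Seeds of the same length in 2007, whose deposited values have another lowest value and so were normalized apart from those of 2008, gave a second set of 3 arrays against 3. In that year each variety stood in a single row, and its 3 samples came from that row. The p-values and calls of 2007 therefore rest on the spread within a row, and variety and row cannot be told apart in them. Of the 314 differences of 2008, 292 had the same sign in 2007 (93%, against 60.3% of all probe sets tested), 66 were called there, where 2.16% of all were, and 43 were called at all 3 lengths and in 2007. BZIP130 differed by 1.5 in 2007, LAR1 by -2.10 and ICE4 by -1.83, each past the threshold (adjusted p = 3e-05, 0.00053 and 0.0123). The 3 probe sets of ERF3 differed by -0.79, -1.09 and -1.46 (adjusted p = 0.0169, 0.00179 and 0.00039).

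These 4 were the called genes with a descriptive symbol that passed in 2007, and the other 10 of the 14 did not pass. Among the 10, MYB60 (-0.96 in 2008, against 0.13 in 2007) and AKR1 (-0.91 in 2008, against 0.25 in 2007) had the other sign, and 8 had the same sign. The change between years had an adjusted p of 0.284 for MYB60 and 0.0539 for AKR1. UGT708D1 was at 10.25, 10.22 and 10.13 in Archer of 2007, against 6.12, 9.50 and 9.90 in Minsoy of 2007. GSTZ3 was at 10.50, 10.54 and 10.38 in Archer and 8.80, 10.06 and 10.53 in Minsoy. In both genes Minsoy replicates 2 and 3 of 2007 lay close to the Archer arrays, and replicate 1 lay below them. At Gma.9036.1.S1_at of LOC100500577 the Minsoy arrays of 2007 were at 1.96, 1.98 and 8.88, and the Archer arrays lay between 8.80 and 10.09. The change of the difference between the years was itself called for 89 probe sets (0.368%), 17 of them among the 314. The count of calls in 2007, 523, was 5224 without Minsoy replicate 1 of that year and between 106 and 322 without any other array.

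The direction of the differences was set beside the course of seed development. In 2007, 54.7% of all probe sets changed between 2 and 5-6 mm, and 135 of the 314 did (43%). Of those 135, 117 (86.7%) were higher in Archer and rising with seed length, or lower and falling, against 65.6% of all probe sets that changed. Without Minsoy replicate 1 the share among the probe sets called was 69.7%, against 43.2% of all that changed. Without both doubted Minsoy arrays it was 32%, against 43.2%. With the stage score of each array as a covariate 994 probe sets were called, among them all 314.

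In a measure of RNA quality the groups did not overlap. The actin control gave a 3-prime minus 5-prime difference of -0.30, -0.34 and -0.49 in Archer and -0.10, -0.27 and -0.28 in Minsoy, so that every Archer array was below every Minsoy array. Its part in the differences was not tested. The medians of the 6 arrays lay between 7.25 and 7.28.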

How the data were processed

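Total RNA (5 µg per array, biotin-labelled) of seeds was hybridised by the authors. The deposited log2 values were made with GCRMA, per the submitters' processing notes; its version is not given in the sources used here. The parents of 2008, the parents of 2007 and the recombinant lines have different lowest values, so they were processed apart, and levels were compared within a year. Scanner files were not used here, and the number of arrays limits the precision.

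Control probe sets were left out (126 Affymetrix, 48 ribosomal RNA). With R 4.3.3 and limma 3.58.1, a mean for each of 6 groups was fitted to the 18 parental arrays of 2008, followed by eBayes and Benjamini-Hochberg adjustment over 24207 probe sets (threshold 0.05). The fit was tested on simulated data. Of the probe sets tested, 6464 had 1 gene, 293 several and 17450 none; symbols were updated by gene identifier. Probe sets ending in _s_at or _x_at can match several genes.

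Genes were named by a rule: all called genes with a descriptive symbol (1 probe set each, the brightest), up to 12 a way with the next that did not overlap, up to 4 called members or the lowest p of each list, the 4 largest probe sets each way and the 3 largest each way of each change of a difference. Second probe sets of named genes, Gma.15768.2.A1_at, and list members given as examples were chosen after their values were seen. The members, lists and rules were chosen with earlier results of these data known, and lists were edited by symbol after the annotation had been seen.

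Per the labels the replicate numbers of 2008 are plantings, so they pair the arrays; residuals of same-numbered Archer and Minsoy arrays correlated at -0.30, -0.20 and -0.21 at 5-6 mm. The fit has no block, which is an alternative. Others were the filter, scaling, array weights, other samples in the fit, the stage score as covariate, and leaving out arrays. Leaving out both doubted Minsoy arrays, and Minsoy replicate 1 together with the block or the stage score, were chosen after seeing the data.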

Additional observations from a re-analysis of the deposited data

Results flagged for a closer look

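The difference between Archer and Minsoy at 5-6 mm was itself different in 2008 and 2007 for 89 probe sets (0.368% of those tested), by an interaction test in limma within years, and 17 of these were among the 314 called in 2008. Without single arrays the count ran from 45 to 958. Gma.15768.2.A1_at was at 8.53, 8.34 and 8.36 in Archer and 3.24, 3.75 and 4.08 in Minsoy in 2008, and at 3.81, 4.05 and 4.87 in Archer and 4.48, 4.17 and 3.22 in Minsoy in 2007, so that the difference was 4.43 larger in 2008. It was also high in the Archer arrays of 2008 at 2 mm (8.24 to 8.35) and 3.5 mm (8.28 to 8.50). For Gma.17162.1.S1_at the change of the difference was -2.70 and for GmaAffx.64222.2.S1_at -2.16: both were lower in Archer in 2008 and not in 2007, where the differences were 0.13 and 0.43. Gma.14471.2.S1_at changed by -3.37, with a difference of -0.88 in 2008 and 2.49 in 2007.

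The 3 largest changes upward were in probe sets that were lower in Archer in 2007. GmaAffx.91354.1.S1_s_at changed by 6.04: it was between 7.95 and 8.20 in Archer and 8.19 and 8.25 in Minsoy in 2008, but at 2.31, 2.49 and 2.63 in Archer and 8.25, 8.84 and 8.81 in Minsoy in 2007. LOC100806292 changed by 9.46 and was at 2.51, 2.51 and 8.31 in Archer and 14.00, 14.18 and 13.58 in Minsoy in 2007, with a difference of -0.01 in 2008. Gma.5689.1.S1_a_at changed by 8.16. It was at 10.43, 10.14 and 9.90 in Archer and 4.62, 9.04 and 9.17 in Minsoy in 2008 (difference 2.54, not called, adjusted p = 0.328 by limma), and at 2.02, 2.30 and 6.10 in Archer and 8.55, 9.34 and 9.38 in Minsoy in 2007. Year, planting design and the authors' separate normalization cannot be told apart in these changes.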

How the results depend on the processing

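All 314 differences kept their sign in every alternative in which they were tested. Their groups did not overlap, so leaving out arrays could not reverse a sign, and several other alternatives leave the difference itself unchanged. The number called moved between alternatives. It was 4953 with array weights (2329 higher, 2624 lower), 994 with the stage score as covariate (522, 472), 66 with only the 6 arrays (46, 20), 6 with these and the planting block (4, 2), 213 with the filter at log2 7 (103 lower) and 82 over 1-gene probe sets (32, 50). Without Minsoy replicate 1 it was 83 with only the other 5 arrays (57, 26), 890 with the stage score (513, 377) and 697 with the planting block (403, 294), and without both doubted Minsoy arrays 815 (464, 351). Leaving out 1 array gave 160 to 293 (95 to 160 higher, 65 to 160 lower). The replicate block gave 258 (129, 129), 0 and 0 for the changes between lengths, 80 for the change between years and 589 for 2007.

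Changes from 2 to 5-6 mm were called for 152 probe sets with array weights, 7 without a filter, 2 without both doubted arrays and 0 to 3 without 1 array. Those from 3.5 to 5-6 mm numbered 2 with array weights, 2 without a filter and 0 without 1 array. Changes between years numbered 1382 with array weights, 142 without a filter and 45 to 958 without 1 array. The 2007 comparison gave 1914 with array weights and 106 to 5224 without 1 array. Called list members, 10 of 372 in all, were 70 with array weights, where 4953 of all 24207 probe sets were called. They were 21 with the stage score, 2 with the 6 arrays, 0 with these and the block, and 7 to 11 without 1 array. Without Minsoy replicate 1 they were 6 with 5 arrays and 19 with the stage score, and 19 without both doubted arrays. The stage score of Minsoy replicate 1 was 30.9% of the Archer span with 100 probe sets each way and 30.9% with those of Archer alone. The cause of these changes was not tested. Of 673 values of 31 named called probe sets, 537 kept their call, 136 lost it and 0 changed sign, which leaving out arrays could not bring about. The call was kept throughout by 4 probe sets. Values under a log2 of 5 limit the size of a difference.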
